A study of Mus musculus with 17 samples.

Results

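The 33 genes described here encode proteins of the centromere, of the kinetochore and of the spindle checkpoint, and they were taken by name from a list. All 33 were found among the 31438 genes to which the transcripts were summed, and all 33 were abundant enough to be tested in every comparison. The centromere is the stretch of each chromosome on which the kinetochore is built, and its chromatin carries the histone H3 variant Cenpa. On that chromatin sits an inner network of Cenp proteins, which recruits the outer Knl1, Mis12 and Ndc80 complexes (the KMN network) that hold the spindle microtubules. A kinetochore without attached microtubules makes the checkpoint signal of Bub1, Bub1b, Bub3, Mad2l1 and Ttk, which delays the separation of the chromosomes, and Sgo1 protects the cohesion between sister chromatids until then. In the cerebellum after birth such genes are used above all by the dividing granule neuron progenitors of the outer layer.

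RNA came from whole cerebella of C57BL/6 mice at postnatal day 3, and 16 libraries of poly-A selected RNA were used. Every mouse carried Math1-Cre, a recombinase that acts in granule neuron progenitors and their progeny and not in most other cells of the cerebellum. The first pair of groups consisted of 5 samples with loxP-flanked Atr, loxP-flanked Bax and null Bak alleles, and of 4 controls with the same Bax and Bak alleles but without loxP-flanked Atr. The second pair consisted of 4 samples with loxP-flanked Atr and loxP-flanked p53, and of 3 controls with loxP-flanked p53 without loxP-flanked Atr. Atr is a kinase that responds to stalled replication forks, Bax and Bak carry out mitochondrial apoptosis, and p53 is the transcription factor that responds to DNA damage. The groups are called Atr-deleted or control after their genotypes, although cells that Cre does not reach keep Atr, Bax and p53. The labels do not say whether each sample is a separate mouse, so p-values measure the spread between these samples.

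The libraries held 42987953 to 100659645 estimated counts, and the lowest count of any of the 33 genes in any library was 211. Levels are given as CPM, counts scaled to library size after TMM scaling. Levels of different genes are compared in TPM, which divides by transcript length, has no TMM scaling and includes mitochondrial transcripts in its total. Atr itself averaged 40.0 ± 3.07 CPM in the Atr-deleted cerebella without Bax and Bak (SD, n = 5) and 43.4 ± 3.99 CPM in their controls (SD, n = 4), so the loss of Atr is not visible in these sums over the whole gene and the whole tissue. Without p53 Atr averaged 37.1 ± 2.83 CPM in the Atr-deleted cerebella (SD, n = 4) and 37.0 ± 1.11 CPM in the controls (SD, n = 3). Replicate 2 of the Atr-deleted cerebella without p53 stood apart, with 9.02% of its counts on mitochondrial genes. In the other 3 libraries of that group this share was 2.47% to 3.37%. A further library of that group held too few counts to be used. Results that rest on replicate 2 are given with and without it.

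The promoters of the genes were examined because many genes of the G2 and M phases share 2 short elements near their start. The first is the CHR element, searched as TTTGAA or TTCGAA, and the second is the CCAAT box, searched as CCAAT, each on both strands. Promoters of 31 of the 33 genes were found in the RefSeq table of the GRCm38.p6 build, as 34 sequences of 250 bases before to 50 bases after a start. Among these 34 promoters 16 (47.1%) held a CHR element, against 19.2% of all 32851 promoters of the same length. A CCAAT box was present in 25 (73.5%), against 37.4% of all promoters. An E2F site, searched as TTTCCCGC, TTTGGCGC, TTTCGCGC or TTTGCCGC, was present in 4 (11.8%), against 2.27% of all promoters. A CHR element within 50 bases of the start, a position chosen after the promoters were seen, was present in 11 (32.4%), against 5.31% of all promoters. None of the searched letters contain those of another motif, and a match describes the sequence and does not show that a protein binds there.

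Windows from 110 bases before to 50 bases after the start follow for 6 genes with a CHR element near the start and for 2 genes without it. Sgo1, Bub1, Ttk, Spc25, Cenpa and Ndc80 stand for the proteins that protect cohesion, signal the checkpoint, bind microtubules and form the centromeric nucleosome. Zwint and Cenpt are shown because they were the 2 genes that did not fall in the comparison without Bax and Bak. The windows are therefore a selection and do not represent all the genes. In the same comparison Cenpp, Nuf2 and Mad2l1 fell, with log2 fold changes of -1.10, -1.01 and -0.93, and their promoters held neither motif. Each window is written 5′ to 3′ on the strand of the gene, and the capitals mark CHR elements and CCAAT boxes. A match on the opposite strand reads as ATTGG for the CCAAT box and as TTCAAA for the CHR element TTTGAA.

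Sgo1 (chr17:53689266-53689425, minus strand): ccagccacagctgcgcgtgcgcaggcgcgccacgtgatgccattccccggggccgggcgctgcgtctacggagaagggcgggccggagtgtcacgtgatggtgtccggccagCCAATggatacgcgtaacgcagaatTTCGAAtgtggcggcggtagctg

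Bub1 (chr2:127831810-127831969, minus strand): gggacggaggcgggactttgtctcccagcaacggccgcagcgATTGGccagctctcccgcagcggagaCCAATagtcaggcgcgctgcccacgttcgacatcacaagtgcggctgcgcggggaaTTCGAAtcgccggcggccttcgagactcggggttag

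Ttk (chr9:83834579-83834738, plus strand): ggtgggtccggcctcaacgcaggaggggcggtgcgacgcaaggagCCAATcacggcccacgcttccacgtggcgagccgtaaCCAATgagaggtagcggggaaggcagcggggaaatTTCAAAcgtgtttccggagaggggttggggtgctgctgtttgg

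Spc25 (chr2:69206164-69206323, minus strand): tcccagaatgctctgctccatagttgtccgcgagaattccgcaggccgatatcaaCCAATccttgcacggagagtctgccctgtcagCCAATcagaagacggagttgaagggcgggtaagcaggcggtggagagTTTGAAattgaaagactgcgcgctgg

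Cenpa (chr5:30666776-30666935, plus strand): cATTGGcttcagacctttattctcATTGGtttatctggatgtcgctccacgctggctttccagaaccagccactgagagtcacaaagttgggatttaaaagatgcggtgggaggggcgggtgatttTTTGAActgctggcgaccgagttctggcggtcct

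Ndc80 (chr17:71526808-71526967, minus strand): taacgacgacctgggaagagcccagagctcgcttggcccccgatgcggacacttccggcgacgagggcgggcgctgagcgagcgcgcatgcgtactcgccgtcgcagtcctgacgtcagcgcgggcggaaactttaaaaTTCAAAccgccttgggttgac

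Zwint (chr10:72654736-72654895, plus strand): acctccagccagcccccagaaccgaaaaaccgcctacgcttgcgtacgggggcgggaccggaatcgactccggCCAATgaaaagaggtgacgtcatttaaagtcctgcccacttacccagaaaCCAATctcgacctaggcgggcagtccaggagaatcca

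Cenpt (chr8:105851959-105852118, minus strand): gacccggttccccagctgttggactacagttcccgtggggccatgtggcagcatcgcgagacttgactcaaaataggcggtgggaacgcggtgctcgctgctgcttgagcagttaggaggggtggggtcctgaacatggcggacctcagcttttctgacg

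The CHR element began at base 28 in Sgo1, 15 in Bub1, 8 in Ttk, 25 in Spc25, 17 in Cenpa and 30 in Ndc80, where base 1 is the first after the start. Bub1, Ttk, Spc25 and Cenpa also carried 2 CCAAT boxes each in these windows, Sgo1 carried 1 and Ndc80 none. Zwint had 2 CCAAT boxes and no CHR element, and the window of Cenpt held neither motif. The gene annotation used for the counts starts Cenpt at position 105853278 of chromosome 8, outside this window. Whether the counted RNA of Cenpt starts at this window is not known. Among the 31 genes with a promoter, the log2 fold change on Atr deletion without Bax and Bak had a median of -0.76 (range -1.55 to -0.41) in the 11 genes with a CHR element near the start and of -0.68 (range -1.10 to 0.18) in the other 20. The ranges overlapped over most of their length, and this split was made with the changes known and was not tested.

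The first comparison asked how deletion of Atr changed these genes where cell death through Bax and Bak was blocked. In Atr-deleted cerebella without Bax and Bak 31 of the 33 genes fell, 1 rose (Cenpt) and 1 (Zwint) did not pass the test (edgeR quasi-likelihood F-test with Benjamini-Hochberg adjustment at 0.05). Among all 17405 genes tested 44.5% were called, 22% lower and 22.5% higher. The median log2 fold change of the 33 genes was -0.70 (range -1.55 to 0.18), against 0.04 for all genes tested. For 30 of the 33 genes every Atr-deleted library lay below every control library, whereas among all genes this held for 21.1%. 6 genes fell by more than 2-fold, namely Sgo1, Bub1, Ndc80, Cenpp, Spc25 and Nuf2, and 0.747% of all genes tested did so. A further 18 genes fell by 1.5-fold to 2-fold, and the other 7 that fell did so by less. In bulk tissue fewer dividing cells and less RNA per cell cannot be told apart.

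**Figure D1:**
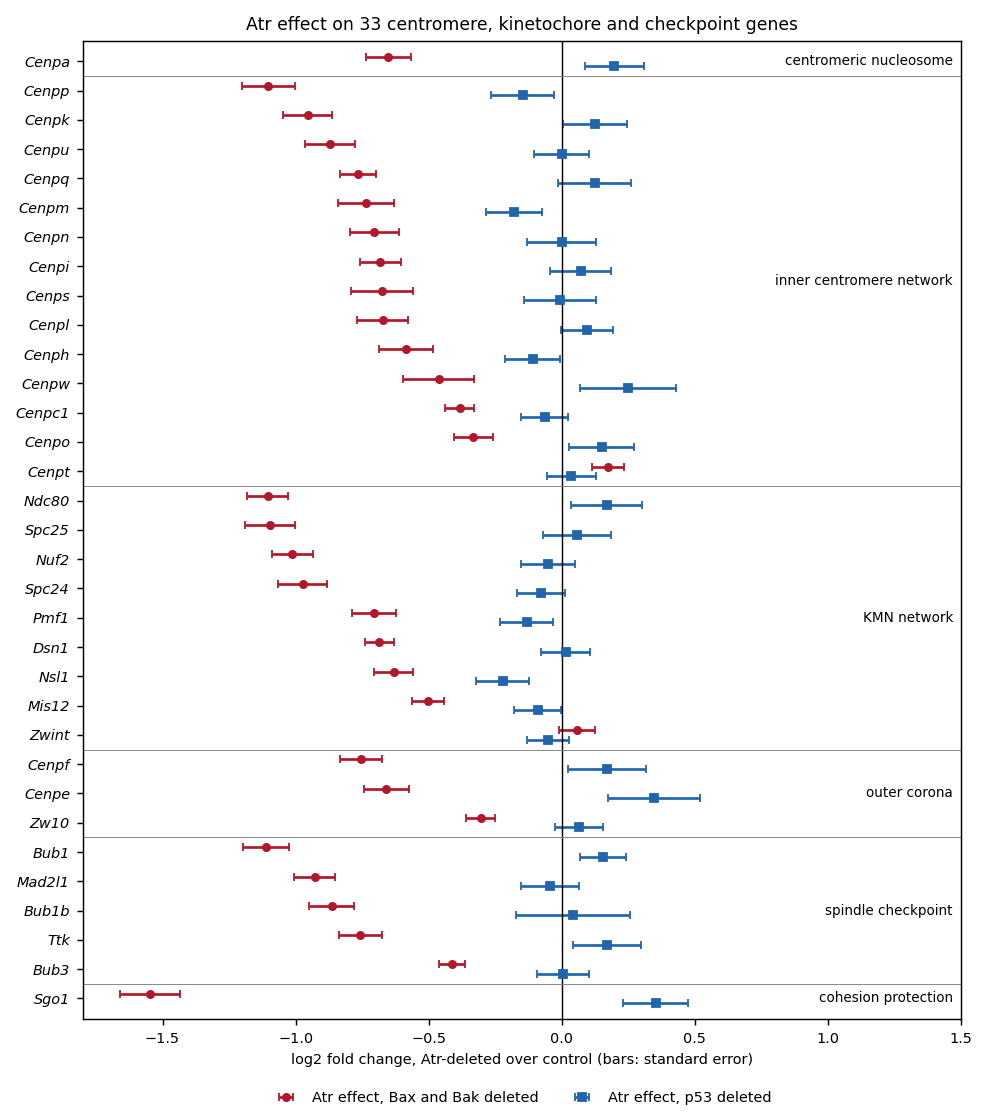
Log2 fold change of each of the 33 genes (x axis; bars, standard error) on Atr deletion without Bax and Bak (circles) and without p53 (squares), with the genes down the page by role. Without Bax and Bak the values ran from -1.55 for Sgo1 to 0.18 for Cenpt, and without p53 from -0.22 for Nsl1 to 0.35 for Sgo1, around 0.

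Sgo1, the shugoshin that shields cohesin at the centromere, had the lowest level relative to its control. Its levels were 15.1, 16.3, 22.2, 18.7 and 15.6 CPM in the Atr-deleted cerebella without Bax and Bak, against 46.2, 54.0, 52.4 and 55.0 CPM in the controls. The highest Atr-deleted library lay at less than 0.5 of the lowest control. The log2 fold change was -1.55 ± 0.11 (SE, adjusted p = 5.47e-06, edgeR), which leaves 34.2% of the control level.

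All 5 genes of the spindle checkpoint fell, with a median log2 fold change of -0.86. Bub1, the kinase that brings the checkpoint proteins to the kinetochore, had 23.8, 22.7, 30.9, 28.6 and 24.0 CPM in Atr-deleted cerebella without Bax and Bak, against 55.0, 57.4, 57.6 and 57.1 CPM in the controls. The groups were far apart, with a log2 fold change of -1.11 ± 0.087 (SE, adjusted p = 6.17e-06, edgeR). Bub3, which carries Bub1 and Bub1b to Knl1, changed least of the 5. It had 79.1, 83.6, 89.3, 87.1 and 81.6 CPM in Atr-deleted cerebella, against 107.7, 110.9, 114.0 and 120.7 CPM in the controls, a log2 fold change of -0.41 ± 0.049 (SE, adjusted p = 6.58e-05, edgeR). Between these lay Mad2l1, the protein whose conformational change makes the inhibitor of Cdc20, at -0.93. Bub1b, the pseudokinase that joins Mad2l1 in that inhibitor, was at -0.86, and Ttk (Mps1), the kinase that starts the checkpoint signal, was at -0.76. In all 5 checkpoint genes every Atr-deleted library was below every control.

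Of the 9 genes of the KMN network 8 fell, and the 4 subunits of the Ndc80 complex, which forms the microtubule grip of the outer kinetochore, fell most. Ndc80 had 13.6, 14.5, 17.1, 17.5 and 14.2 CPM in Atr-deleted cerebella without Bax and Bak, against 33.4, 33.4, 33.3 and 33.8 CPM in the controls. The controls were nearly equal to each other and far above the Atr-deleted libraries, with a log2 fold change of -1.10 ± 0.078 (SE, adjusted p = 3.48e-06, edgeR). Spc25, Nuf2 and Spc24 had log2 fold changes of -1.10, -1.01 and -0.97. The 4 subunits of the Mis12 complex, which links the inner kinetochore to Ndc80, fell less, at -0.71 for Pmf1, -0.69 for Dsn1, -0.63 for Nsl1 and -0.50 for Mis12. Mis12 itself ranged from 34.2 to 41.5 CPM in Atr-deleted cerebella and from 51.8 to 54.3 CPM in the controls. The difference in fold change between the 2 complexes was not tested.

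Per length, the subunits of the Ndc80 complex kept their proportions to each other. The TPM of Ndc80 relative to that of Nuf2 was 0.462 ± 0.016 in Atr-deleted cerebella without Bax and Bak (SD, n = 5) and 0.491 ± 0.022 in the controls (SD, n = 4). Spc24 relative to Nuf2 was 0.646 ± 0.049 in Atr-deleted cerebella and 0.626 ± 0.104 in the controls. For Spc25 this ratio was 1.49 ± 0.077 in Atr-deleted cerebella and 1.57 ± 0.085 in the controls. In each of the 3 ratios the means lay within about 1 or 2 SD of each other and the libraries overlapped.

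**Figure D2:**
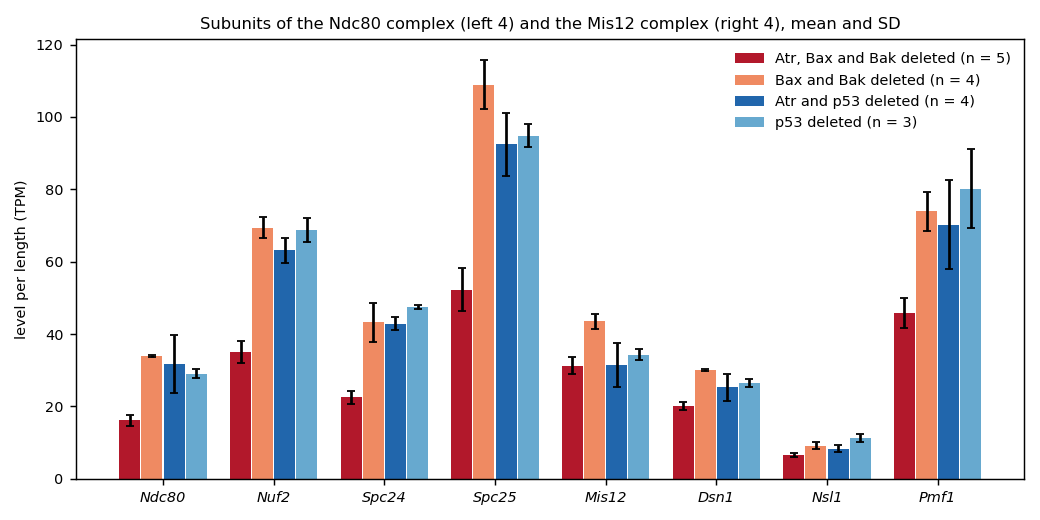
Mean TPM (y axis; bars, SD) of the 4 subunits of the Ndc80 complex on the left and of the 4 subunits of the Mis12 complex on the right, in the 4 groups. Spc25 had the highest level of the 8 in every group, and Nsl1 the lowest, at 6.61 TPM in Atr-deleted cerebella without Bax and Bak and 9.13 TPM in their controls.

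Zwint, which binds Knl1 and Zw10 and is known in rat brain as a partner of the synaptic protein Snap25, did not follow the other KMN genes. It had 349.9, 325.9, 337.7, 329.1 and 381.7 CPM in Atr-deleted cerebella without Bax and Bak, against 343.5, 370.9, 302.9 and 323.5 CPM in the controls. The groups overlapped throughout, with a log2 fold change of 0.06 ± 0.068 (SE, adjusted p = 0.515, edgeR). It was also by far the most abundant of the 33 genes per length, with 439.8 ± 35.4 TPM in Atr-deleted cerebella (SD, n = 5) and 415.3 ± 35.0 TPM in controls (SD, n = 4). The second in rank, Bub3, had 87.9 ± 2.71 TPM in Atr-deleted cerebella and 114.4 ± 5.04 TPM in the controls. Nsl1 ranked last in both groups.

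Of the 14 genes of the inner centromere network 13 fell and 1 rose, with a median log2 fold change of -0.68. Cenpp, a subunit of the group that holds Cenpo, Cenpq and Cenpu, changed most. It had 5.18, 5.25, 6.31, 6.497 and 5.29 CPM in Atr-deleted cerebella without Bax and Bak, against 11.7, 12.9, 11.7 and 13.3 CPM in the controls, a log2 fold change of -1.10 ± 0.099 (SE, adjusted p = 1.38e-05, edgeR). The other genes of that group fell by unequal amounts, with -0.87 for Cenpu, -0.77 for Cenpq and -0.33 for Cenpo. Cenpu and Cenpo share 26.9% and 20.5% of their 31-base words with transcripts of other genes, so part of their counts depends on how reads were divided. In the group of Cenph, Cenpi, Cenpk and Cenpm, which sits next to Cenpc1, the log2 fold changes were -0.58, -0.68, -0.95 and -0.74. Cenpl and Cenpn, which together read the Cenpa nucleosome, had -0.67 and -0.70. Cenpc1, the scaffold that binds both the nucleosome and the Mis12 complex, fell by 0.38 on the log2 scale.

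Cenpt, Cenpw and Cenps belong to the histone-fold group of the inner kinetochore, in which Cenpt reaches out to the Ndc80 complex, and they did not move together. Cenpt had 32.4, 31.7, 32.0, 33.05 and 31.6 CPM in Atr-deleted cerebella without Bax and Bak, against 27.4, 26.2, 32.5 and 29.0 CPM in the controls. A control library lay inside the range of the Atr-deleted ones, and the log2 fold change was 0.18 ± 0.060 (SE, adjusted p = 0.0337, edgeR). This call was lost in many of the alternatives, with a log2 fold change of 0.08 and an adjusted p of 0.288 without replicate 2 of the controls. It was 0.28 (adjusted p = 0.00291, edgeR) against the 2 controls of sample number series 100019 and 0.04 (adjusted p = 0.63, edgeR) against the 2 of series 1842. Cenpw fell, with 5.68, 5.17, 6.78, 6.57 and 4.56 CPM in Atr-deleted cerebella, against 8.08, 8.64, 6.74 and 8.59 CPM in the controls. Its groups overlapped by 1 control library, and the log2 fold change was -0.46 ± 0.13 (SE, adjusted p = 0.0158, edgeR). Cenps fell without overlap, by 0.68 on the log2 scale.

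Cenpa, the histone variant that marks the centromere, fell to 32.9, 29.2, 35.7, 37.6 and 29.6 CPM in Atr-deleted cerebella without Bax and Bak, against 50.5, 47.4, 56.5 and 55.4 CPM in the controls. The groups did not overlap, and the log2 fold change was -0.65 ± 0.084 (SE, adjusted p = 0.000116, edgeR). All 3 genes of the outer corona fell too. Cenpf, a large microtubule-binding protein of the late cell cycle, had 78.0, 78.6, 89.3, 94.2 and 73.2 CPM in Atr-deleted cerebella, against 131.0, 136.5, 158.9 and 138.0 CPM in the controls, a log2 fold change of -0.75 ± 0.079 (SE, adjusted p = 3.82e-05, edgeR). Cenpe, the kinesin that carries chromosomes towards the spindle equator, was at -0.66. Zw10, which recruits dynein to the kinetochore and also works in membrane traffic, changed least of the 31 genes that fell. It had 29.7, 29.5, 29.0, 30.5 and 27.9 CPM in Atr-deleted cerebella, against 36.0, 33.5, 40.4 and 36.6 CPM in the controls, a log2 fold change of -0.30 ± 0.056 (SE, adjusted p = 0.0011, edgeR).

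**Figure D3:**
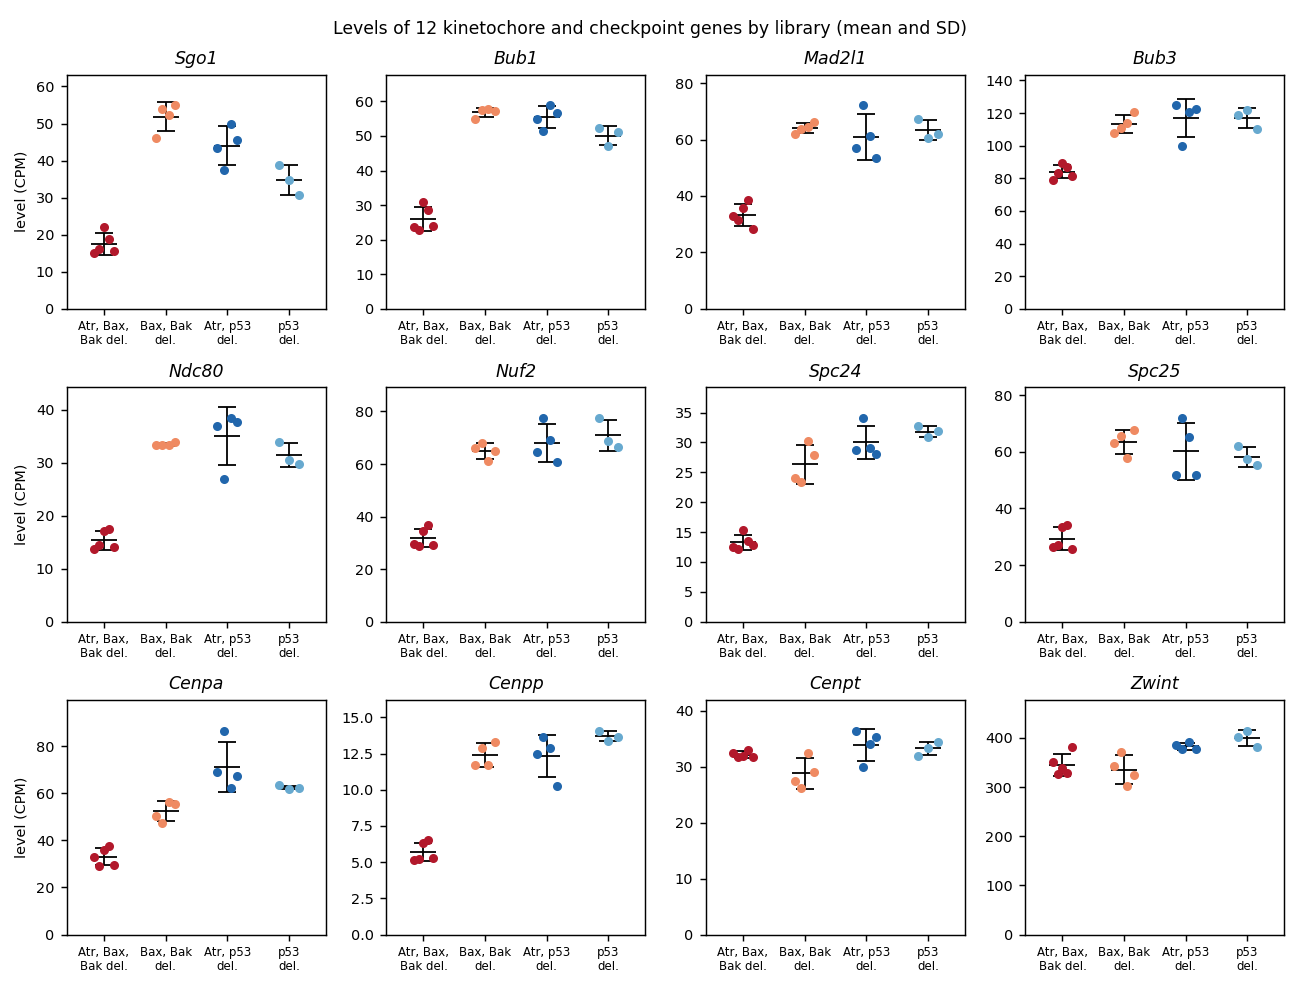
Level in CPM (y axis, from 0) of 12 of the genes in every library (points) of the 4 groups, with the mean and SD as bars. In Sgo1, Bub1, Ndc80 and Spc25 the 5 libraries of Atr-deleted cerebella without Bax and Bak lie below all others, while in Zwint and Cenpt they lie among them.

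The genes varied together across the 5 libraries of Atr-deleted cerebella without Bax and Bak. Replicates 3 and 4 held the highest level for 10 and 22 of the 33 genes, and the lowest level was always in replicate 1, 2 or 5. The median coefficient of variation over the genes was 11.3% in this group, against 5.38% in its controls. Leaving out any 1 library left 31 of the 33 genes lower. Summed over the 33 genes, the level was 1219 ± 35.5 TPM in Atr-deleted cerebella (SD, n = 5) and 1676 ± 12.2 TPM in controls (SD, n = 4). Without Zwint, which alone made up a large share of these sums, it was 778.7 ± 49.7 TPM in Atr-deleted cerebella and 1260 ± 35.8 TPM in controls.

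A list of 32 other centromere and kinetochore genes gave a similar picture, with 27 lower and 0 higher in Atr-deleted cerebella without Bax and Bak and a median log2 fold change of -0.73. The 4 of smallest p were Ska2, a subunit of the complex that tracks microtubule ends (-0.73), Ercc6l, the translocase on DNA threads between separating chromatids (-1.15), Sgo2a, the second shugoshin (-0.94), and Aurkb, the kinase that corrects wrong attachments (-0.81). The 5 that did not pass the test were Mad2l1bp, Mad1l1, Ndel1, Clasp2 and Cenpx, with log2 fold changes of -0.12, -0.06, -0.02, -0.01 and -0.01. Both Mad1l1, the partner of Mad2l1, and Cenpx, the partner of Cenps, thus had values near 0, beside -0.93 for Mad2l1 and -0.68 for Cenps.

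The decline was shared with other genes of the cell cycle. Of 46 genes of S phase and replication 46 fell, with a median log2 fold change of -0.78, and their 3 smallest p-values belonged to Hells, Ccne2 and Tyms (-0.996, -1.04 and -1.03). Of 28 genes of mitotic entry and exit 25 fell and 1 rose, with a median of -0.66, led by Ccna2, Ccnb2 and Cks2 (-1.07, -0.91 and -1.18). Of 20 genes of mitotic kinesins and the spindle midzone 17 fell and 2 rose, with a median of -0.74, led by Racgap1, Nusap1 and Kif4 (-0.77, -0.89 and -0.88). The summed TPM of the 33 genes divided by that of the S phase list was 0.691 ± 0.030 in Atr-deleted cerebella without Bax and Bak (SD, n = 5) and 0.582 ± 0.0079 in controls (SD, n = 4). Divided by the mitotic entry list it was 0.882 ± 0.043 in Atr-deleted cerebella and 0.738 ± 0.030 in controls, so the sum of the 33 genes declined less than either list. This gap came with Zwint, which makes up much of the sum. With Zwint left out, a choice made after its values were seen, while the other lists kept their genes that did not fall, the ratio to the S phase list was 0.440 ± 0.0069 in Atr-deleted cerebella without Bax and Bak (SD, n = 5) and 0.438 ± 0.011 in controls (SD, n = 4). The ratio to the mitotic entry list was then 0.563 ± 0.0068 in Atr-deleted cerebella and 0.554 ± 0.0087 in controls. No difference between the lists was tested.

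**Figure D4:**
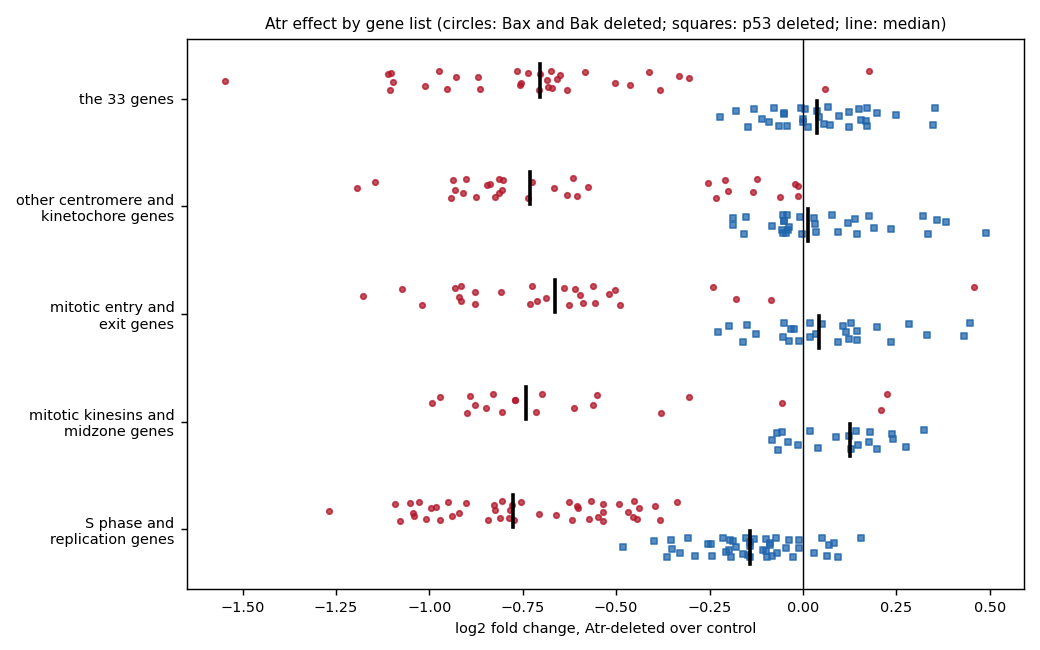
Log2 fold change (x axis) of every gene of the 33 and of 4 other lists (rows) on Atr deletion without Bax and Bak (circles) and without p53 (squares); the black lines are medians. The medians without Bax and Bak were -0.70, -0.73, -0.66, -0.74 and -0.78 from the top row down, and those without p53 were 0.04, 0.01, 0.04, 0.13 and -0.14.

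Markers of cell types moved with this result. Of 17 granule progenitor markers 12 fell and 2 rose in Atr-deleted cerebella without Bax and Bak, and their summed level was 1752 to 1964 TPM, against 2283 to 2813 TPM in controls. Of 16 granule neuron markers 7 fell and 1 rose, and their sum was 3103 to 3467 TPM in Atr-deleted cerebella and 3638 to 4393 TPM in controls. Among all genes tested 22% were lower and 22.5% higher. Most markers of several cell types that Math1-Cre does not target were higher. For astrocytes and Bergmann glia 12 of 14 rose and 1 fell, and the sum was 7591 to 8642 TPM in Atr-deleted cerebella and 6226 to 6470 TPM in controls. For Purkinje cells 8 of 10 rose, with 2551 to 3645 TPM in Atr-deleted cerebella and 1932 to 2406 TPM in controls, and for interneurons 9 of 10 rose, with 752.5 to 892.9 TPM in Atr-deleted cerebella and 495.6 to 577.1 TPM in controls.

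In the oligodendrocyte lineage 8 of 11 markers rose and 1 fell, with 1668 to 3895 TPM in Atr-deleted cerebella without Bax and Bak and 851.4 to 1723 TPM in controls. In microglia 9 of 11 markers rose, with 233.2 to 289.0 TPM in Atr-deleted cerebella and 162.0 to 213.7 TPM in controls. In endothelial cells and pericytes 4 of 10 rose and 6 did not pass the test. Their sums overlapped, with 414.6 to 472.0 TPM in Atr-deleted cerebella and 337.6 to 423.0 TPM in controls. No marker was at 0 in a whole group. The mitochondrial share of counts was 3.53% to 4.35% in Atr-deleted cerebella and 1.81% to 2.55% in controls. The part of the cell makeup and of the mitochondrial share in the decline of the kinetochore genes was not tested. All Atr-deleted libraries also carry sample numbers of a series of their own, which the controls do not share, so that this series and the genotype cannot be told apart. With the 2 controls of series 100019 alone, or the 2 of series 1842 alone, 31 of the 33 genes were lower. Within the controls all marker sums except those of astrocytes and Bergmann glia differed between these series without overlap. Sums of microglia and of endothelial cells and pericytes were lower in series 1842, and the other sums that differed were higher there. The granule progenitor sums were 2317 and 2283 TPM in series 100019 and 2813 and 2787 TPM in series 1842. The granule neuron sums were 3638 and 3860 TPM in series 100019 and 4295 and 4393 TPM in series 1842. The oligodendrocyte sums were 876.5 and 851.4 TPM in series 100019 and 1723 and 1505 TPM in series 1842. The astrocyte and Bergmann glia sums did not split so, with 6271 and 6470 TPM in series 100019 and 6226 and 6427 TPM in series 1842.

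The second comparison asked for the effect of Atr deletion where p53 was deleted as well, and there 0 of the 33 genes passed the test in either direction (edgeR). Among all 17348 genes tested 0.0461% were called. The median log2 fold change of the 33 genes was 0.04 (range -0.22 to 0.35), with 13 genes below 0 and 20 above, against 0.01 for all genes. At an unadjusted p under 0.05 there was 1 of the 33 genes, Sgo1, and DESeq2 and limma-voom called 0 as well. The standard errors, with a median of 0.11 (0.0803 to 0.216), leave room for moderate changes in either direction. All Atr-deleted libraries and 1 control carry sample numbers of series 1843, and the other 2 controls carry numbers of series 1845, which holds no Atr-deleted library. Against the control of series 1843 alone, an arm of 1 library assumed to vary like the others, 0 of the 33 genes were called and their median log2 fold change was -0.03.

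Sgo1 had 43.4, 37.3, 49.8 and 45.7 CPM in Atr-deleted cerebella without p53, against 38.7, 34.8 and 30.7 CPM in the controls. The groups overlapped by 1 library, and the log2 fold change was 0.35 ± 0.12 (SE, adjusted p = 0.636, edgeR). Bub1 had 55.0, 51.3, 58.9 and 56.6 CPM in Atr-deleted cerebella, against 52.2, 47.1 and 51.0 CPM in the controls, a log2 fold change of 0.16 ± 0.086 (SE). Ndc80 had 37.0, 27.0, 38.5 and 37.8 CPM in Atr-deleted cerebella, against 34.0, 30.6 and 29.7 CPM in the controls, with the lowest value in replicate 2. Cenpa had 69.0, 86.4, 62.1 and 67.2 CPM in Atr-deleted cerebella, against 63.3, 61.9 and 62.1 CPM in the controls, with the highest value in the same library.

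Only in Nsl1 and Cenpm did every Atr-deleted library without p53 lie below every control, where among all genes 4.62% did so, and 0 of the 33 had every Atr-deleted library above every control, where 3.59% of all genes did. Nsl1 had 15.3, 14.5, 15.7 and 15.1 CPM in Atr-deleted cerebella, against 15.9, 18.7 and 18.7 CPM in controls, a log2 fold change of -0.22 ± 0.099 (SE, adjusted p = 0.753, edgeR). Cenpm had 14.8, 12.6, 14.01 and 15.3 CPM in Atr-deleted cerebella, against 15.5, 16.4 and 16.5 CPM in controls, a log2 fold change of -0.18 ± 0.10 (SE, adjusted p = 0.825, edgeR). Zwint again showed nearly equal levels, with 385.2, 377.5, 391.6 and 377.2 CPM in Atr-deleted cerebella and 401.5, 414.3 and 382.3 CPM in controls.

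Replicate 2 of the Atr-deleted cerebella without p53 was the most extreme of its group for many of the genes. It held the highest level for 12 of the 33 genes and the lowest for 16. Bub1b had 51.4 CPM in this library and 88.7 to 107.7 CPM in the other 3 of the group, against 81.7 to 87.2 CPM in the controls. The summed level of the 33 genes was 1296 TPM there and 1651 to 1694 TPM in the other 3, against 1610 to 1693 TPM in the controls. TPM has no TMM scaling, and its total includes the mitochondrial transcripts. Zwint, nearly equal in CPM, had 336.6 TPM there, the lowest of its group, whose highest was 446.3 TPM. How much of the lower sum comes from the TPM scale was not tested. Without this library 0 of the 33 genes were called, as with it. In the other lists of cell cycle genes and in the marker lists 0 genes were called without p53 too. The summed granule progenitor markers were 1135 TPM in replicate 2 and 1814 to 1949 TPM in the other 3 Atr-deleted libraries, against 1796 to 2043 TPM in controls. The same limit of the TPM scale holds for this sum.

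The difference between both effects was tested directly in a fit over the 16 libraries, in which a negative value means a lower Atr effect without Bax and Bak than without p53. Here 31 of the 33 genes differed, all lower, where 16.2% of 18166 genes were called and 8.09% lower. The median difference was -0.78 on the log2 scale, against 0.02 for all genes. It was largest for Sgo1, at -1.91 ± 0.17 (SE, adjusted p = 5.13e-06, edgeR), followed by Ndc80 at -1.28 ± 0.15 and Bub1 at -1.27 ± 0.12. The 2 genes that did not pass were Zwint at 0.10 ± 0.096 (adjusted p = 0.521, edgeR) and Cenpt at 0.13 ± 0.10 (adjusted p = 0.431, edgeR). This test shares its libraries with the first 2 comparisons and is not separate evidence for them. Without replicate 2 of the Atr-deleted cerebella without p53, Cenpw alone of the 31 lost its call, with a log2 difference of -0.57 (adjusted p = 0.0663, edgeR). The call of Cenpw was also lost without single libraries of each other group, such as replicate 2 of the controls without p53 (adjusted p = 0.127, edgeR). Of the 32 other centromere and kinetochore genes 23 differed, all lower, with a median of -0.79, and of the 46 S phase genes 30 did, with a median of -0.58.

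The controls of both backgrounds were compared to see from which levels the genes started, with controls without Bax and Bak set against controls without p53. Of the 33 genes 27 were not called, 3 were lower and 3 were higher without Bax and Bak, while 18% of 18166 genes were called, 9.3% lower and 8.71% higher. In this fit the share of kinetochore genes called was thus close to that of all genes, and the median log2 difference was -0.04. Without replicate 2 of the Atr-deleted cerebella without p53, which enters the fit over the 16 libraries, 7 genes were lower and 4 higher. The calls added were Cenpa, Cenpm, Cenpt and Spc24 (lower) and Cenpe (higher). When any 1 library was left out, 1883 to 4698 of all genes were called. Sgo1 differed most, with 46.2, 54.0, 52.4 and 55.0 CPM in controls without Bax and Bak, against 38.7, 34.8 and 30.7 CPM in controls without p53, a log2 difference of 0.58 ± 0.13 (SE, adjusted p = 0.00643, edgeR). Cenpf and Mis12 were higher too, by 0.43 and 0.23 on the log2 scale. Lower were Cenps (-0.49), Cenph (-0.49) and Zwint (-0.25). Cenph had 11.8, 10.9, 12.2 and 11.1 CPM in controls without Bax and Bak, against 15.2, 17.4 and 15.8 CPM in controls without p53, without overlap. The background and the deposited table from which a library came cannot be told apart in this comparison. The summed level of the 33 genes was nearly equal, with 1676 ± 12.2 TPM in controls without Bax and Bak (SD, n = 4) and 1645 ± 43.1 TPM in controls without p53 (SD, n = 3).

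By TPM Zwint ranked first of the 33 genes in all 4 groups, and Bub3, Cenpa and Spc25 took the next 3 places in each. Cenpa had 59.9 ± 6.09 TPM in Atr-deleted cerebella without Bax and Bak and 101.1 ± 8.52 TPM in their controls. Without p53 it had 122.0 ± 8.04 TPM in Atr-deleted cerebella and 119.6 ± 1.96 TPM in controls. Other genes changed place, such as Sgo1, which ranked 25 in Atr-deleted cerebella and 13 in controls without Bax and Bak, and 16 in Atr-deleted cerebella and 24 in controls without p53. At the low end Nsl1 had 6.61 ± 0.57 TPM in Atr-deleted cerebella without Bax and Bak and 9.13 ± 0.97 TPM in their controls, and 8.35 ± 0.93 TPM in Atr-deleted cerebella without p53 and 11.3 ± 1.22 TPM in controls. In 29 of the 33 genes a single annotated transcript held over 50% of the counts in every group, and the exceptions were Cenpa, Cenpi, Cenpl and Cenpo. The largest difference in the share of the leading transcript between Atr-deleted cerebella without Bax and Bak and their controls was in Cenpi. It was 44.2 ± 7.9% in Atr-deleted cerebella (SD, n = 5) and 56.1 ± 7.7% in controls (SD, n = 4). The share was also lower in Cenpl, at 38.5 ± 4.9% in Atr-deleted cerebella and 50.1 ± 7.7% in controls. In Cenpa it was 33.3 ± 3.1% in Atr-deleted cerebella and 43.4 ± 3.4% in controls. Nuf2 went the other way, with 86.4 ± 5.8% in Atr-deleted cerebella and 76.4 ± 6.0% in controls. A smaller difference with less spread was in Mad2l1, at 51.0 ± 1.4% in Atr-deleted cerebella and 59.7 ± 0.62% in controls. These shares were not tested.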

How the data were processed

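Poly-A selected RNA of cerebella was sequenced from stranded libraries in 17 samples, grouped by the genotype labels. Per transcript of Ensembl and lane, the authors deposited estimated counts, which can be fractional and carry no recorded normalization. Among tools, kallisto 0.42.4 and edgeR are listed, and among builds mm9 and GRCm38, with no role for any, per the submitters' processing notes. kallisto divides reads among similar transcripts, so counts of genes that share sequence depend on that division. Lanes were added, transcripts summed to genes by GENCODE M21 (GRCm38; 92284 of 94080 matched, the rest holding 0.779% to 1.04% of counts) and sums rounded.

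Replicate 3 of the Atr-deleted cerebella without p53 had identical lane columns with 13601 counts in all, counted once, and was left out of the main fits. In the other 16 libraries 1 count is worth at most 0.0233 CPM. Within each background no libraries were copies of each other, and libraries of different backgrounds were not compared for this. Each background was fitted with edgeR 4.0.16 (TMM, default filter by group, robust quasi-likelihood F-test, Benjamini-Hochberg adjustment over all genes, threshold 0.05), and the difference between the Atr effects and the control comparison in a joint fit. The fits were tested on simulated data. Standard errors are the log2 fold change over the square root of F. TPM uses annotated transcript lengths and all matched transcripts, mitochondrial ones included, without TMM scaling.

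Values per library are given, within each role, for the genes of largest and smallest change without Bax and Bak, for those that did not fall and for those of highest and lowest TPM; other genes with values per library were chosen after their values were seen. The 33 genes, the lists and the tests were chosen with earlier results of these data known. Alternatives were other scalings and filters, DESeq2 1.42.0, limma-voom (limma 3.58.1), a threshold of 0.01, joint fits, controls of 1 number series, the shallow library kept, genes of shared sequence removed and each library left out. R 4.3.3, Python 3.11.15, numpy 2.4.6, pandas 2.3.3 and matplotlib 3.10.9 were used.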

Additional observations from a re-analysis of the deposited data

Results flagged for a closer look

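Of 99 sets of 4 or 5 libraries examined, 1 for each of the 33 genes in 3 groups, 4 held a library with a large gap to its neighbours, where chance alone gives about 1 in 20. In Cenpk, replicate 2 of the controls without Bax and Bak had 12.9 CPM, against 13.8 to 13.9 CPM in the other 3. In Ttk, replicate 1 of the same controls had 29.0 CPM, against 32.1 to 32.6 CPM in the other 3. Replicate 2 of the Atr-deleted cerebella without p53, the library with the high mitochondrial share, had 27.0 CPM of Ndc80, against 37.0 to 38.5 CPM in the other 3, and 24.4 CPM of Ttk, against 33.01 to 34.5 CPM.

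The Atr effects without Bax and Bak and without p53 differed in 31 of the 33 genes by the test of the difference itself (edgeR). The log2 differences below -0.9 were those of Sgo1 (-1.91), Ndc80 (-1.28), Bub1 (-1.27), Spc25 (-1.16), Cenpk (-1.09), Cenpe (-1.01), Nuf2 (-0.97), Cenpp (-0.96), Ttk (-0.93), Cenpf (-0.93), Bub1b (-0.91) and Spc24 (-0.91). Those of Cenpq (-0.90), Mad2l1 (-0.89), Cenpu (-0.88), Cenpa (-0.86), Cenpl (-0.78), Cenpi (-0.76), Cenpw (-0.72), Cenpn (-0.71), Dsn1 (-0.71), Cenps (-0.68), Pmf1 (-0.58), Cenpm (-0.56), Cenpo (-0.49), Cenph (-0.48), Bub3 (-0.43), Mis12 (-0.42), Nsl1 (-0.42), Zw10 (-0.38) and Cenpc1 (-0.33) were smaller.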

How the results depend on the processing

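No result reversed its direction where it had been called. Without Bax and Bak 31 genes were lower in every fit that left out a library and in all others except at a threshold of 0.01, where 30 were (Cenpw, adjusted p = 0.0158). Their median log2 fold change stayed between -0.78 and -0.67. The single higher gene, Cenpt, became 0 genes with median-of-ratios scaling, without a filter on low counts, with DESeq2, at a threshold of 0.01, in the joint fit, with controls of number series 1842 only and without genes of shared sequence, and 0 to 1 when a library was left out; its adjusted p was 0.63 with series 1842, while the call held with controls of series 100019 only (adjusted p = 0.00291).

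Without p53 0 of the 33 genes were called in every alternative. The fit on series 1843 has a single control, assumed to vary like the other libraries, and the shallow library shares its sample number with replicate 1 of its group and may come from the same mouse. Over all genes the 8 calls became 14 without a filter, 128 with DESeq2, 4 with limma-voom, 2 at a threshold of 0.01, 23 with the shallow library kept, 70 in the joint fit, 5 with libraries of number series 1843 only and 2 to 13 when a library was left out. For the difference between the effects 22 genes were called lower at a threshold of 0.01, and 26 to 31 when a library was left out. The fewest were called without replicate 3 of the controls without p53, where Cenpc1, Cenph, Cenps, Cenpw and Zw10 lost their calls. The 2936 genes called in all became 1175 at a threshold of 0.01 and 1629 to 3561 when a library was left out.

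Between the controls the 3 lower genes became 6 with upper-quartile scaling, 1 at a threshold of 0.01 and 1 to 7 when a library was left out, and the 3 higher became 1 at that threshold and 1 to 4. The 3272 genes called became 1291 at that threshold and 1883 to 4698 when a library was left out, and upper-quartile scaling split them into 2203 lower and 1308 higher, against 1690 lower and 1582 higher. The cause of these changes was not tested beyond the fewer samples or stricter threshold by construction. No paired analysis was possible because the labels give no replicate numbers that the groups share; the number series are given with the results above. The widest standard errors were those of Cenpw without Bax and Bak (0.134) and of Bub1b in the other 3 comparisons (0.176 to 0.235).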

Other observations

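Regulators upstream of cell cycle genes were listed as well, among them subunits of the DREAM complex, which represses genes through CHR elements and E2F sites in resting cells. In Atr-deleted cerebella without Bax and Bak 5 of 13 fell and 3 rose, with a median log2 fold change of -0.07. Among all genes tested in this comparison 22% were lower and 22.5% higher. The 3 that rose are p53 targets: Cdkn1a, which encodes p21 and blocks cyclin-dependent kinases (2.26), Ccng1 (1.30) and Mdm2 (0.67). Cdkn1a averaged 259.1 ± 25.7 CPM in Atr-deleted cerebella (SD, n = 5) and 54.7 ± 5.78 CPM in controls (SD, n = 4). Without p53 it averaged 74.9 ± 7.05 CPM in Atr-deleted cerebella (SD, n = 4) and 75.6 ± 4.64 CPM in controls (SD, n = 3). The 5 that fell were Rbbp4 (-0.65), Rbl1 (-0.58), Lin54 (-0.43), Tfdp1 (-0.32) and Lin52 (-0.25), while E2f4 (-0.05) did not pass the test. Whether any of these regulators had a part in the decline of the kinetochore genes was not tested.

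Among the mitotic genes outside the kinetochore 3 rose without Bax and Bak, namely Gtse1, a microtubule-associated protein that also binds p53 (0.46), Cit, the citron kinase of cytokinesis (0.22), and Ckap2, a spindle protein (0.21). These genes were singled out after their values were seen. The shallow library of the Atr-deleted cerebella without p53 held 27 counts over the 33 genes, 0.201% of its 13438 counts on genes, and 17 of the 33 genes were at 0 counts there. In the other libraries of that group the 33 genes held 0.148% to 0.173% of the counts.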
